A study of Xenopus laevis with 15 samples.

Results

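The 2 rhob genes of the frog Xenopus laevis were followed through Xenobots, motile clusters of cells that arise when pieces of embryonic ectoderm are cut out and left to heal. Xenopus laevis carries 2 subgenomes, so most genes exist as an L and an S copy (homeologs), and the members are the rows rhob.L and rhob.S, each alone and summed. They are 2 of 42638 genes in the table, and both passed the filter on low counts that left 24052 genes to test. Both were chosen by measured values of these same libraries, namely their lower levels at 4 h after a stimulus than in the control group and at 0 h. The levels at 4 h against the control group and against 0 h are therefore given as a description, with no test.

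RhoB is a small GTPase, a molecular switch that signals while it holds GTP and stops once the GTP is hydrolysed. Exchange factors load it, GTPase-activating proteins switch it off, and effectors carry the signal to actin and myosin. In mammalian cells much of RhoB sits on endosomes, the protein is short-lived, and its gene behaves as an immediate early gene, switched on quickly by growth factors and stress.

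All Xenobots were wild type and came from animal cap ectoderm that developed for 7 days at 14 °C. Each library was made from a pool of 50 Xenobots, and 5 groups had 3 libraries each. The control group (Ctrl) was taken before any stimulus, the extract groups (Ext) immediately (0 h) or 4 h after an extract of 3 homogenised early embryos was added at 10 µL per 14 mL of medium, and the ATP groups at the same times after ATP at 250 µM. Xenobots left for 4 h without a stimulus were not analysed here, so elapsed time and stimulus cannot be told apart in the 4 h groups. The labels call the cells epidermal, and they do not say whether the replicates came from separate clutches, so p-values measure only the spread between these pools.

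Libraries held between 12583039 and 20325075 expected counts in all, and ribosomal RNA genes took 20.1% to 43.3% of it. Summed epidermal markers (13 of 14 symbols in the table) lay between 9712 and 13085 CPM (counts scaled to a library total of 1000000) in every library. Of 24 listed genes of neural, mesodermal, endodermal and blood tissue, 5 reached a mean of 1 CPM, and hba1.S was at 0. The sum of that list was 10.7 to 76.6 CPM in Ctrl, 5.45 to 9.90 CPM at extract 0 h, 6.35 to 18.4 CPM at extract 4 h, 7.41 to 33.3 CPM at ATP 0 h and 42.3 to 91.0 CPM at ATP 4 h. Its highest genes were actc1.L and mylpf.L of muscle. In pooled tissue, fewer cells that express a gene and less RNA per cell cannot be told apart.

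The rhob transcripts were well covered. The count of both copies together ranged from 801 in extract 4 h replicate 1 to 2750 in Ctrl replicate 2. RSEM divides reads that fit both copies between them, and rhob.L had a fractional count in all 15 libraries. The sum of both copies was whole, within 0.02 of a count, in all 15 libraries. The reads that were divided were thus shared between the rhob copies alone, and the summed level does not depend on that division, whereas each copy's own level does. Among 1235 homeolog pairs with a fractional L count in every library, 88.2% had such whole sums. The files give no transcript lengths, so the level of one copy is not compared with that of the other.

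Before any stimulus rhob.L stood at 47.5, 57.1 and 55.2 CPM in Ctrl replicates 1 to 3, a mean of 53.3 CPM ± 5.07 (SD, n = 3). The same libraries held rhob.S at 65.1, 65.9 and 66.6 CPM, a mean of 65.9 CPM ± 0.738 (SD, n = 3). In these 3 pools the S copy varied less than the L copy, with a coefficient of variation of 1.12% against 9.52%. Such spreads depend on the scaling of the libraries with TMM factors. Without these factors Ctrl replicates 1 to 3 held rhob.S at 63.8, 72.5 and 61.1 CPM and rhob.L at 46.6, 62.8 and 50.7 CPM. At extract 0 h, extract 4 h and ATP 4 h it varied more, with 19.2%, 27.8% and 21.0% against 8.25%, 17.1% and 10.4%. At ATP 0 h they were 1.34% and 1.58%. In the authors' adjusted log2 values, described below, the SD in Ctrl was 0.142 for rhob.S and 0.137 for rhob.L.

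Directly after the extract rhob.L measured 52.6, 45.9 and 45.7 CPM, and its mean was 48.1 CPM ± 3.97 (SD, n = 3). For rhob.S the values were 72.6, 57.4 and 50.0 CPM, with a mean of 60.0 CPM ± 11.5 (SD, n = 3). Replicate 1 was the highest of the group in both copies, and the group overlapped Ctrl in both.

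Directly after ATP rhob.L measured 55.3, 56.8 and 55.2 CPM, a mean of 55.7 CPM ± 0.881 (SD, n = 3). For rhob.S the values were 73.7, 75.4 and 73.7 CPM, with a mean of 74.3 CPM ± 0.993 (SD, n = 3). After scaling this was the most uniform group, with a coefficient of variation of 1.57% in the summed level. Without TMM factors its rhob.L was 60.4, 53.7 and 43.4 CPM and its rhob.S 80.4, 71.3 and 57.9 CPM. After scaling all 3 libraries lay above all 3 of Ctrl in rhob.S, and in rhob.L they overlapped. Without the factors the groups overlapped in both copies.

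At 4 h after the extract rhob.L measured 24.8, 29.2 and 35.0 CPM, a mean of 29.7 CPM ± 5.09 (SD, n = 3). For rhob.S the values were 30.3, 35.7 and 51.1 CPM, with a mean of 39.0 CPM ± 10.8 (SD, n = 3). Replicate 3 was the highest of the group in both copies. All 3 libraries lay below Ctrl in both copies.

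At 4 h after ATP rhob.L measured 34.5, 42.3 and 40.5 CPM, a mean of 39.1 CPM ± 4.07 (SD, n = 3). For rhob.S the values were 33.2, 50.8 and 46.0 CPM, with a mean of 43.3 CPM ± 9.11 (SD, n = 3). Replicate 1 was the lowest of the group in both copies, and again no library reached the level of Ctrl.

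**Figure D1:**
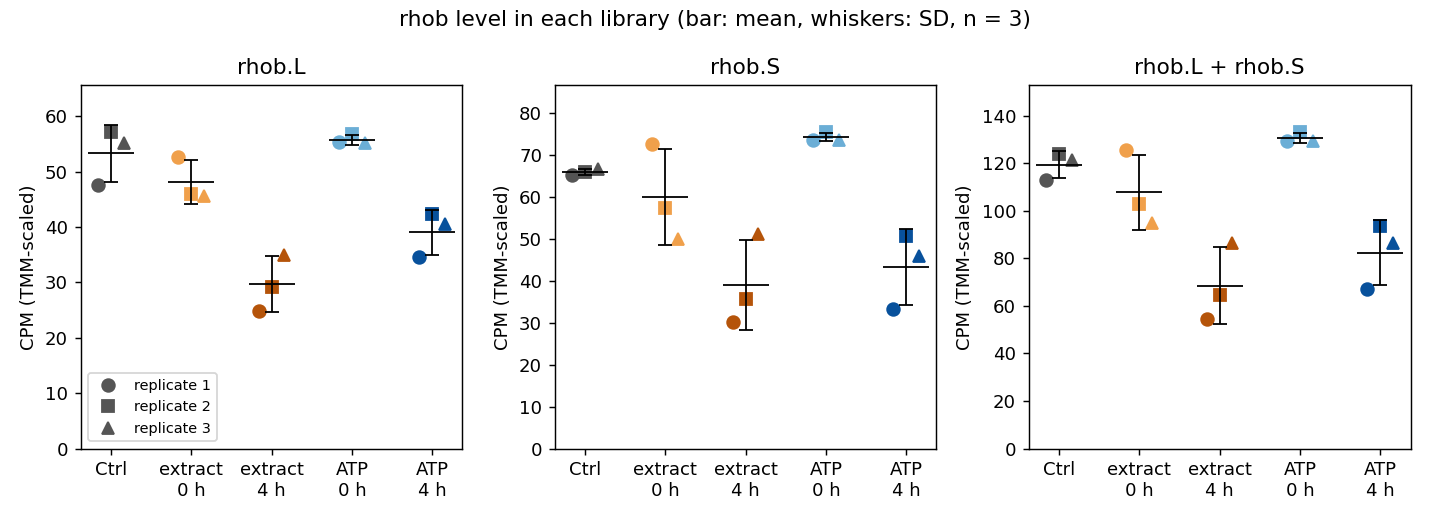
Level of rhob.L, rhob.S and both summed (CPM, scaled with TMM factors) in each of the 15 libraries; marker shapes are replicate numbers, the bar is the group mean and whiskers are the SD (n = 3). All 4 h libraries lie below the others in rhob.L, while in rhob.S extract 4 h replicate 3 at 51.1 CPM and ATP 4 h replicate 2 at 50.8 CPM lie above extract 0 h replicate 3 at 50.0 CPM.

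With both copies summed, the order of the group means was ATP 0 h at 130.6 CPM ± 2.05, Ctrl at 119.4 CPM ± 5.78, extract 0 h at 107.8 CPM ± 15.8, ATP 4 h at 82.4 CPM ± 13.6 and extract 4 h at 68.5 CPM ± 16.2 (SD, n = 3 each). Of the neighbours in that order, Ctrl and extract 0 h overlapped, as did ATP 4 h and extract 4 h. The lowest library at extract 0 h stood just above the highest at ATP 4 h, which was at 93.4 CPM. Each copy alone gave the same order of means, but in rhob.S the extract 0 h group overlapped both groups at 4 h.

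The comparisons with Ctrl at 4 h are those through which rhob was chosen. The summed level was 42.7% lower at extract 4 h than in Ctrl, with a log2 fold change of -0.80 (standard error 0.160, edgeR). The copies gave -0.84 (standard error 0.129) for rhob.L and -0.76 (standard error 0.187) for rhob.S. At ATP 4 h the summed level was 31.0% lower than in Ctrl, at -0.54 (standard error 0.159), from -0.45 (standard error 0.128) in rhob.L and -0.60 (standard error 0.186) in rhob.S. Both comparisons use the same Ctrl libraries. Across all genes, 5.68% had an extract 4 h group wholly below Ctrl and 4.47% an ATP 4 h group wholly below it, as both rhob copies did. With copies summed, as rhob also did, these shares were 5.51% and 4.46%.

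Within each replicate number, the summed level at extract 4 h lay below that of Ctrl by log2 differences of -1.04, -0.94 and -0.49 for replicates 1 to 3. At ATP 4 h the differences were -0.75, -0.41 and -0.49. As both 4 h groups lay wholly below Ctrl in the sum, each of these differences had to be negative. Only their sizes are informative, and the largest was in replicate 1 for both stimuli.

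Between 0 h and 4 h the summed level was 36.5% lower after the extract (log2 fold change -0.66, standard error 0.160) and 36.9% lower after ATP (log2 fold change -0.66, standard error 0.159). For rhob.L these were -0.70 (standard error 0.129) after the extract and -0.51 (standard error 0.128) after ATP. For rhob.S they were -0.62 (standard error 0.187) and -0.78 (standard error 0.187). Averaged over both stimuli the summed log2 fold change was -0.66 (standard error 0.113), and those of rhob.L and rhob.S were -0.60 (standard error 0.0909) and -0.70 (standard error 0.132). In rhob.L the extract 4 h group lay wholly below extract 0 h, as in 3.33% of all genes, and in both copies the ATP 4 h group lay wholly below ATP 0 h, as in 7.82%. With copies summed the shares were 3.29% and 8.11%, and rhob was again among those genes. In rhob.L each of the 6 libraries at 4 h lay below each of the 6 at 0 h, as was the case for 0.291% of all genes (0.253% with copies summed, rhob included), and 0.0499% of all genes were called lower by edgeR in this comparison. In rhob.S the times overlapped, because extract 4 h replicate 3 and ATP 4 h replicate 2 reached 51.1 and 50.8 CPM while extract 0 h replicate 3 stood at 50.0 CPM. After the extract the size of the summed difference varied by replicate number, with -1.20, -0.68 and -0.14 for replicates 1 to 3. After ATP it was -0.95, -0.51 and -0.58.

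**Figure D2:**
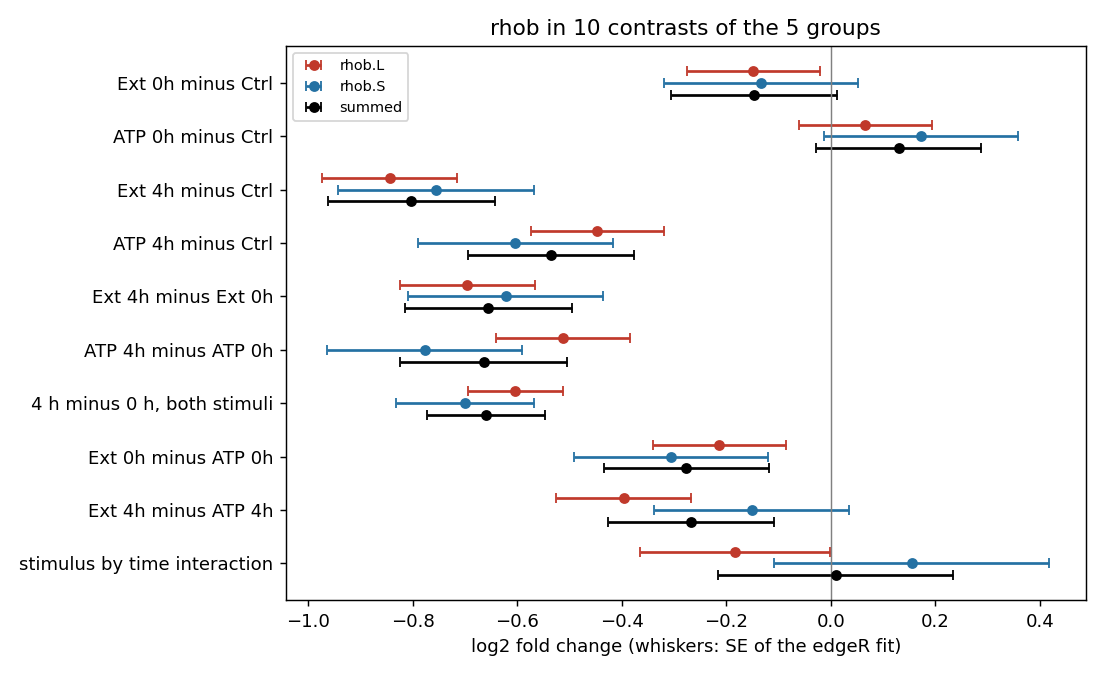
Log2 fold changes of rhob.L, rhob.S and both summed in 10 contrasts of the 5 groups, with whiskers for the standard error of the edgeR fit. The 5 contrasts of a 4 h group with Ctrl or 0 h lie between -0.45 and -0.84, and the others between -0.40 and 0.17.

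The share of ribosomal RNA was uneven among these libraries. Its group means were 35.6% at ATP 0 h, 33.2% in Ctrl, 31.7% at extract 0 h, 29.2% at extract 4 h and 26.1% at ATP 4 h. Both 4 h groups were thus lowest on average in this share as in summed rhob, though the ranges of the groups overlapped in the share. It was 20.1%, 28.2% and 39.2% in extract 4 h replicates 1 to 3, in the same order as their rhob levels. At ATP 4 h it was 21.0%, 31.7% and 25.5%, again in the order of the rhob levels. Within the other groups the orders did not match. Ctrl replicates 1 to 3 had 36.2%, 26.4% and 36.9%, and replicate 2 was lowest in this share but highest in summed rhob. At extract 0 h it was 38.2%, 21.9% and 34.9%, where replicate 1 was highest in both but replicate 3 had the lowest summed rhob. At ATP 0 h it was 28.2%, 35.2% and 43.3%, and replicate 3 was highest in this share but lowest in summed rhob. The TMM factors of extract 4 h replicates 1 to 3 were 1.16, 1.04 and 0.873, in the reverse order of this share. Without them rhob.L was 28.7, 30.3 and 30.5 CPM there and rhob.S 34.9, 36.9 and 44.6 CPM. With ribosomal RNA genes left out before scaling, the summed log2 fold change was -0.81 for extract 4 h against Ctrl and -0.53 for ATP 4 h against Ctrl, about as large as with those genes. TMM factors already respond to such a share, so similar values were likely from the outset. Whether the share itself, or another property of the RNA that moves with it, bears on rhob was not tested.

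The authors also deposited log2 CPM from which they had removed surrogate variables. These values lay closer together within the 4 h groups and at extract 0 h than log2 CPM from the counts did. In Ctrl they lay about as far apart in rhob.L and farther apart in rhob.S. At ATP 0 h they lay farther apart in both copies. At ATP 0 h their SD was 0.0627 in rhob.L and 0.0822 in rhob.S. From the counts, log2 CPM of rhob.L there deviated from the group mean by only -0.015 to 0.026. In the authors' deposited table rhob.L lay between 5.41 and 5.68 in Ctrl, 4.66 and 4.87 at extract 4 h, and 5.13 and 5.17 at ATP 4 h. In the authors' deposited table rhob.S lay between 5.59 and 5.86 in Ctrl, 4.94 and 5.12 at extract 4 h, and 5.09 and 5.24 at ATP 4 h. On these adjusted values the 4 h groups of both copies stood apart from Ctrl and from both 0 h groups, whose values ranged from 5.43 to 5.60 in rhob.L and from 5.52 to 5.84 in rhob.S. Of all genes in the authors' deposited table, 0.653% had each 4 h library below each library of Ctrl and 0 h, as both rhob copies did, which are counted among them. In the counts the times overlapped in rhob.S. For 4 h against 0 h over both stimuli, 1772 genes were called on the adjusted values and 14 by edgeR on the counts. As rhob was chosen through these contrasts, the separation is a description.

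The comparisons at 0 h were not used to choose rhob and were tested, although they share libraries with those that were. Immediately after the extract neither copy passed the test. The log2 fold change against Ctrl was -0.15 for rhob.L and -0.13 for rhob.S, and -0.15 for the sum, with a 95% interval of -0.50 to 0.21. The edgeR adjusted p-value was 1.00 for each. Single libraries set the size: the summed value was -0.27 without extract 0 h replicate 1 and -0.06 without replicate 3, that of rhob.S was -0.29 and -0.02, and that of rhob.L was -0.22 without Ctrl replicate 1. No gene of the table was called in this comparison (0% of 24052), where 1089 genes had an unadjusted p-value under 0.05.

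Immediately after ATP the log2 fold changes against Ctrl were 0.07 for rhob.L and 0.17 for rhob.S, and 0.13 for the sum, with a 95% interval of -0.22 to 0.48. The edgeR adjusted p-values were 0.985, 0.984 and 0.977. After TMM scaling each ATP 0 h library lay above each of Ctrl in rhob.S, as in 5.4% of all genes, and in the sum, as in 5.53% of genes with copies summed. Without TMM factors the groups overlapped in rhob.S, at 57.9 to 80.4 CPM against 61.1 to 72.5 CPM in Ctrl. They also overlapped in the authors' adjusted values, at 5.69 to 5.84 against 5.59 to 5.86 in Ctrl. There the log2 fold change of rhob.S was 0.04. The interval leaves room for a rise of the summed level by up to 0.48 or a fall by up to 0.22 on the log2 scale. Of all genes, 0% were called by edgeR with the copies apart, where 861 had an unadjusted p-value under 0.05, and 0.00539% with the copies summed.

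The stimuli were compared directly at each time. At 0 h the summed level was 17.4% lower after the extract than after ATP, at a log2 fold change of -0.28, with a 95% interval of -0.63 to 0.08 and an edgeR adjusted p-value of 0.719. After TMM scaling the groups did not overlap in either copy or in the sum, as in 6.89% of all genes and in 7.35% with copies summed. Without TMM factors they overlapped in both copies. In the authors' adjusted values they overlapped in rhob.L but not in rhob.S. The log2 fold changes there were -0.10 in rhob.L and -0.12 in rhob.S, against -0.21 and -0.31 in the edgeR fit of the counts. At 4 h the summed level was 16.9% lower after the extract, at a log2 fold change of -0.27, with a 95% interval of -0.62 to 0.09 and an edgeR adjusted p-value of 1.00. In rhob.L the difference at 4 h was -0.40 with a 95% interval of -0.68 to -0.11, and in rhob.S it was -0.15 with a 95% interval of -0.57 to 0.27. Their edgeR adjusted p-values over all genes were 0.966 and 1.00, and the groups overlapped in both copies. The summed value at 4 h was -0.13 without extract 4 h replicate 1, -0.47 without extract 4 h replicate 3, -0.41 without ATP 4 h replicate 1 and -0.17 without ATP 4 h replicate 2. In rhob.S these were -0.00 (to 2 decimals), -0.39, -0.32 and -0.02. At 0 h the value of rhob.S, -0.31 with all libraries, was -0.47 without extract 0 h replicate 1 and -0.19 without replicate 3. In a limma fit of the authors' deposited table the difference in rhob.L at 4 h was -0.38 with an adjusted p-value of 0.0257, while every fit of the counts with all libraries gave 0.329 or more. That limma fit made no allowance for the surrogate variables already removed, so its p-value can be too small. The fall from 0 h to 4 h was not shown to differ between the stimuli, with an interaction of 0.01 for the summed level, a 95% interval of -0.49 to 0.51 and an edgeR adjusted p-value of 1.00. The interaction is the difference of the falls after the extract and after ATP, through both of which rhob was chosen. It is therefore not independent of that choice. Of all genes 0% were called at either time or in the interaction, while 1250, 1029 and 330 genes passed 0.05 without adjustment.

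Whether the copies kept their proportion was asked next, since that measure does not depend on the scaling of the libraries. Among the reads assigned to rhob, rhob.L held 42.2%, 46.4% and 45.4% in Ctrl and 42.0%, 44.4% and 47.8% at extract 0 h. At extract 4 h it held 45.1%, 45.1% and 40.6%. After ATP it held 42.9%, 43.0% and 42.8% at 0 h and 51.0%, 45.5% and 46.8% at 4 h. The ATP 0 h libraries were almost alike, and each ATP 4 h library lay above them.

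Over the 5 groups the share did not differ beyond the spread between libraries, with 42.2% of its variation between groups (permutation test with 100000 resamples, p = 0.201). The mean share was 47.8% ± 2.90 (SD, n = 3) at ATP 4 h and 42.9% ± 0.0592 (SD, n = 3) at ATP 0 h. That difference of 4.86 percentage points had an exact two-sided permutation p of 0.100, the smallest that 3 libraries against 3 allow. Extract 4 h against ATP 4 h, at -4.14 percentage points, had the same p by this test. In all, 8 pairs of groups were looked at. Single libraries differed by more than counting error: the 95% Wilson interval was 38.0% to 43.3% for extract 4 h replicate 3 and 48.1% to 53.8% for ATP 4 h replicate 1. These intervals cover counting error only and take the division of shared reads as given.

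**Figure D3:**
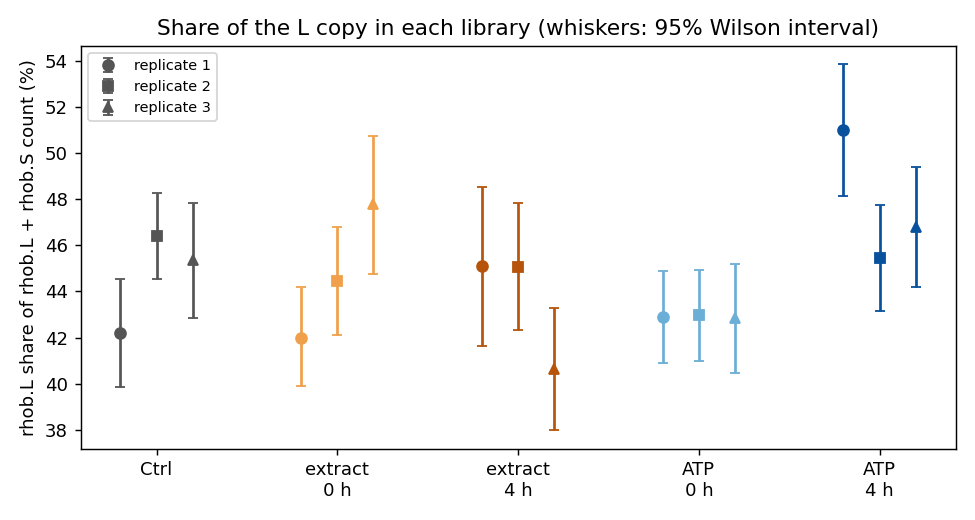
Share of rhob.L in the summed rhob count (percent) in each library, with 95% Wilson intervals and marker shapes for replicate numbers; the axis does not start at 0. The ATP 0 h libraries lie between 42.8% and 43.0% and the ATP 4 h libraries between 45.5% and 51.0%.

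Within groups the copies rose and fell together from library to library. After each group's mean log2 CPM was removed, the deviations of rhob.L and rhob.S over the 15 libraries had a Pearson r of 0.890 (exact permutation within groups, two-sided, p = 0.000386) and a Spearman rank correlation of 0.914 (exact permutation within groups, two-sided, p = 0.000386). One relation was computed, so no adjustment was made. Without extract 4 h replicates 1 and 3, the libraries farthest from the median, r was 0.799 and the rank correlation 0.874 over 13 libraries. The copies share each library's scaling and the division of reads that fit both. A factor common to a library would also give a positive r, and permuting within groups does not remove it. Values for other pairs of copies are not given here, so this r is not shown to be particular to rhob. Whether the copies are regulated together was not tested.

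**Figure D4:**
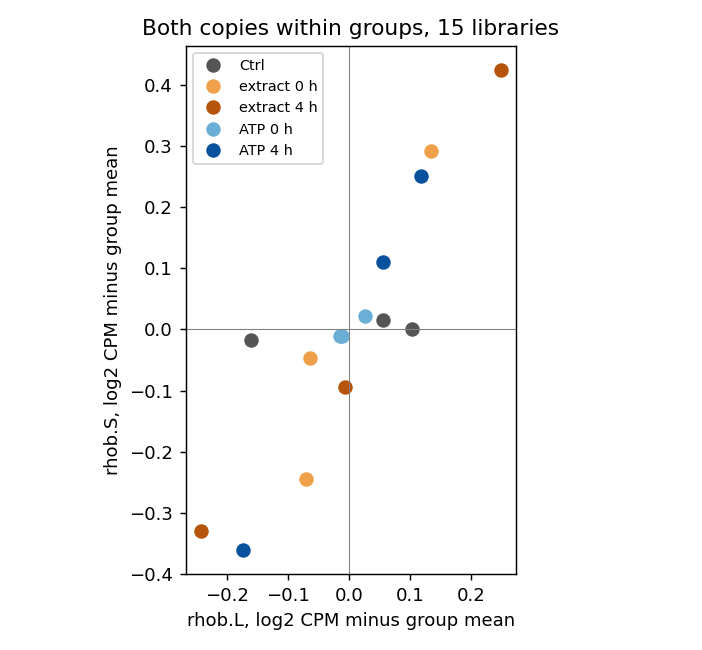
Deviation of rhob.S from its group mean against that of rhob.L (both in log2 CPM) in 15 libraries, coloured by group. The points follow a rising line with a Pearson r of 0.890, and extract 4 h replicate 3 is the highest point on both axes.

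Genes of 3 groups around actin and the rhob gene were tested as lists that were chosen with earlier results known: actomyosin, the transcription factor SRF (serum response factor) with its cofactors and targets, and NF-Y. By edgeR and by DESeq2 0 of their members were called in any of the 10 contrasts, where edgeR called 0.00416% of all genes for ATP 4 h against Ctrl, 0.0125% for ATP 4 h against ATP 0 h, 0.0582% for 4 h against 0 h over both stimuli and 0% in the others. For 4 h against 0 h over both stimuli 9.75% of all genes had an unadjusted p-value under 0.05, in either direction, and the median log2 fold change of all genes was -0.00 to 2 decimals.

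Of 20 tested actomyosin genes 0 were lower and 2 higher in that contrast at an unadjusted p-value under 0.05, and 6 had a negative log2 fold change, with a median of 0.10. Those with a mean of at least 1 CPM ran from myl12b.S, a regulatory light chain of myosin, at -0.15 to myh10.S, a heavy chain of non-muscle myosin, at 1.00. Set against Ctrl, 13 of the 20 were negative at extract 0 h (median -0.06) and 14 at ATP 0 h (median -0.07). At 4 h 13 were negative after the extract (median -0.05) and 9 after ATP (median 0.01). The level of myh10.S was 6.20 CPM ± 3.59 in Ctrl, 1.62 CPM ± 0.233 at extract 0 h and 6.81 CPM ± 3.18 at ATP 4 h (SD, n = 3 each), and the summed markers of other tissues above reached their highest values in Ctrl and ATP 4 h too, whose part in it was not tested.

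SRF and its MRTF cofactors respond to actin assembly. Of 26 tested genes of that list 0 were lower and 4 higher at an unadjusted p-value under 0.05, and 7 had a negative log2 fold change, with a median of 0.14. Those with a mean of at least 1 CPM ran from mrtfa.L, a cofactor, at -0.11 to tagln.L, an actin-binding protein, at 0.89 (standard error 0.378). Set against Ctrl, 21 of the 26 were negative at extract 0 h (median -0.14) and 15 at ATP 0 h (median -0.08). At 4 h 19 were negative after the extract (median -0.10) and 14 after ATP (median -0.00 to 2 decimals). Over all genes 47.1% to 49.9% were negative in these comparisons with Ctrl. The 4 genes higher at 4 h than at 0 h, named after their values were seen, were tagln.L, cnn1.L, tpm1.L and ccn2.L, of which tagln, cnn1 and tpm1 encode contractile or actin-binding proteins of muscle. The mean of tpm1.L was 11.2 CPM in Ctrl and 12.7 CPM at ATP 4 h, against 5.75 to 6.67 CPM in the other groups. That of tagln.L was also highest in Ctrl at 1.78 CPM and ATP 4 h at 1.74 CPM, but its Ctrl libraries ran from 0.721 to 3.58 CPM. The other genes differed from this pattern. The mean of ccn2.L was highest at extract 4 h, at 13.8 CPM against 12.9 CPM at ATP 4 h and 11.7 CPM in Ctrl. For cnn1.L it was 0.535 CPM in Ctrl, 0.507 CPM at extract 4 h and 0.494 CPM at ATP 4 h. The summed markers of other tissues, led by muscle genes, were highest in Ctrl and ATP 4 h, and their part in the list's values was not tested. NF-Y binds the CCAAT box of the human RHOB promoter. For 4 h against 0 h over both stimuli, its 5 tested subunit genes lay at log2 fold changes between -0.12 for nfyb.L and -0.05 for nfyb.S. Of them 0 were under 0.05 without adjustment. Over all genes 50.4% had a negative log2 fold change in this contrast.

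**Figure D5:**
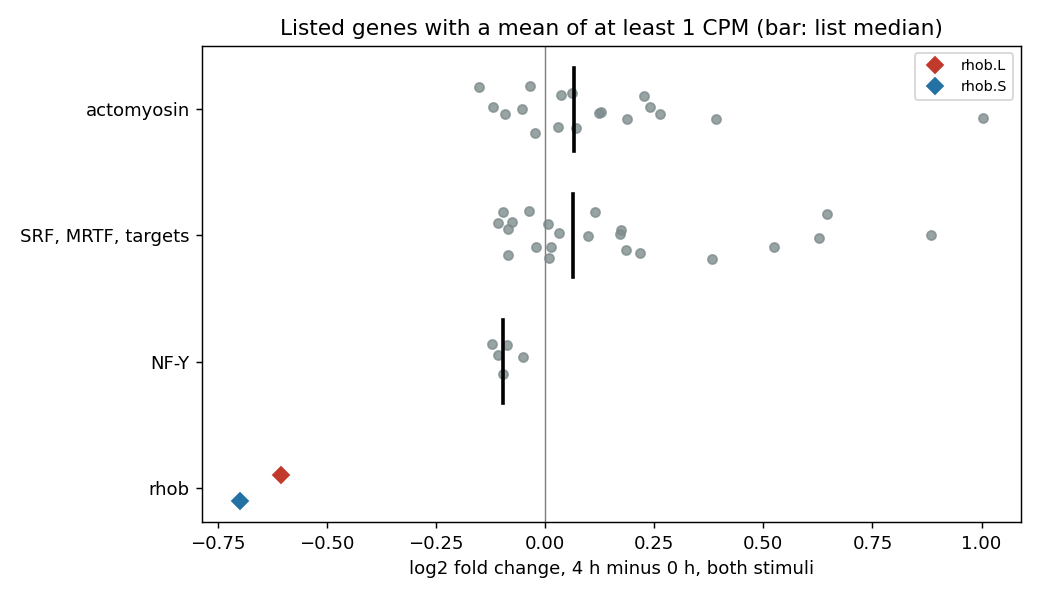
Log2 fold change of 4 h against 0 h, averaged over both stimuli, for actomyosin, SRF and NF-Y genes with a mean of at least 1 CPM; each point is a gene and the bar is the median of the points shown. The plotted lists run from -0.15 in myl12b.S to 1.00 in myh10.S, and the rhob copies stand at -0.60 and -0.70. Other lists that were analysed are not plotted, and some hold genes lower than myl12b.S, though none lower than either rhob copy.

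Among 14812 genes with a mean of at least 5 CPM, the likeness to summed rhob was measured as the Pearson r of log2 CPM over the 15 libraries, which share their scaling. The 10 most alike had an r of 0.900 to 0.926, where the median of all genes was 0.118. They were ccdc25.S, dazap2.S, mettl2b.L (a tRNA methyltransferase), arfrp1.S (a GTPase of the Golgi), map2k1.S (the kinase MEK1, which activates ERK), LOC108699617, LOC108706168, elavl1.S (an RNA-binding protein that stabilises AU-rich messages), atp6v0c.S (part of the proton pore of the V-ATPase) and ier5l.S (an immediate early gene). By Spearman rank correlation 2 of these remained among the 10 most alike, arfrp1.S and mettl2b.L.

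For 4 h against 0 h over both stimuli their log2 fold changes ran from -0.19 in dazap2.S and map2k1.S to -0.69 in ier5l.S. The level of ier5l.S was 27.2 CPM ± 0.925 in Ctrl, 18.4 CPM ± 2.69 at extract 4 h and 17.6 CPM ± 1.47 at ATP 4 h (SD, n = 3 each). As these genes were picked for their likeness to rhob over the same libraries, their lower levels at 4 h follow from that choice.

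The genes beside rhob were looked up by their order in RefSeq's Xenopus_laevis_v10.1 assembly, from the 2 nearest protein-coding genes on each side. For 4 h against 0 h over both stimuli the log2 fold change was -0.17 (standard error 0.0856) in pum2.L and -0.22 (standard error 0.0848) in pum2.S, which encode an RNA-binding protein. It was -0.05 (standard error 0.128) in ldah.L, -0.10 (standard error 0.0716) in hs1bp3.S and -0.28 (standard error 0.101) in LOC108718258. Each of these was negative, where 50.4% of all genes were. None of them was called, with edgeR adjusted p-values of 0.451 to 0.901, where 0.0582% of all genes were called. The copies gdf7.L and gdf7.S and the gene LOC108717199 did not pass the filter on low counts.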

How the data were processed

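RNA of pooled Xenobots was sequenced in 15 stranded libraries depleted of ribosomal RNA (per the labels, 75 nt, single-end). Expected counts were deposited by the authors as one table, which the column names, per the file headers, trace to RSEM. The submitters' processing notes also name fastp, STAR and limma. The genome build and versions are not given in the sources used here. A second deposited table holds log2 CPM with surrogate variables removed by the authors, as its name says, and serves only as an alternative. Of the expected counts 69.1% were whole.

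Expected counts were rounded, filtered with filterByExpr, scaled with TMM factors and fitted with edgeR 4.0.16 (R 4.3.3, robust quasi-likelihood, 1 coefficient per group over all libraries). Tests were two-sided, with Benjamini-Hochberg adjustment over all 24052 genes, and genes with an adjusted p-value under 0.05 were called. Summed levels came from the same fit of 18562 symbols with L and S counts added. CPM are counts per 1000000 of the TMM-scaled library. Log2 CPM used a prior count of 2 and fold changes one of 0.125. A standard error is the log2 fold change over the square root of F, and 95% intervals use the t distribution on 10 degrees of freedom. On simulated data with 100 genes changed 2-fold between 4 h and 0 h, the fit recovered 100%, and with 100 changed 1.5-fold, 73.0% (23723 genes). It also called 6 unchanged genes. The changed genes had mean counts over 100, and no replicate effect was simulated. Each gene was given the spread of the trend at its level and not its own, so recovery in the real data can be lower. Only the contrast over both stimuli was scored. These rates therefore do not carry over to contrasts of single groups.

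The members, lists and tests were chosen with earlier results of these data known. Named were the members of each list with the highest and lowest change of 4 h against 0 h at a mean of at least 1 CPM, any called member, and the 10 genes most like rhob. Other lists and genes that were analysed are not reported here. Of the gene symbols 40077 matched RefSeq's Xenopus_laevis_v10.1 table, which named 375 ribosomal RNA genes. Replicate numbers from the titles paired the samples in 5 of 10 pairs of groups, where each correlation of same-numbered deviations was above 0.1. The alternatives were the replicate block, RLE factors, no filter, DESeq2 1.42.0, limma-voom and limma 3.58.1 on the authors' table, ribosomal RNA genes left out, only the groups compared, extract 4 h replicates 1 and 2 summed, and each library left out.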

Additional observations from a re-analysis of the deposited data

Results flagged for a closer look

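Groups of 3 libraries were too small for a test of outlying samples. For 19 genes or sums named above, each in 3 comparisons, it was checked whether every extract library moved one way and every ATP library the other. This happened in 4 of 57 cases. At 0 h against Ctrl it was 4 of 19, where 3.86% of all 24052 genes did the same. At 4 h against Ctrl and for 4 h against 0 h it was 0 of 19, where 1.97% and 2.92% of all genes did. In rhob.L every extract 0 h library lay below the mean of Ctrl and every ATP 0 h library above it, a difference of -0.22 in log2 CPM between the stimuli. The same held for myl12b.S (-0.22), map2k1.S (-0.22) and elavl1.S (-0.20). Tested directly between extract 0 h and ATP 0 h, the edgeR adjusted p-value was 0.742 for each of these genes except myl12b.S, where it was 0.756. The 4 genes share the same libraries, and map2k1.S and elavl1.S were picked for their likeness to rhob over them, so they do not add to the value of rhob.L.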

How the results depend on the processing

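The lower rhob levels at 4 h kept their sign in all 232 alternatives run for these 5 contrasts, with each copy and the sum counted apart. The contrasts were those through which rhob was chosen, and the alternatives reuse the same libraries. The kept sign is thus a description and no independent support. With each library left out in turn, the summed log2 fold change against Ctrl ranged from -1.005 to -0.67 at extract 4 h and from -0.64 to -0.40 at ATP 4 h, and that of 4 h against 0 h over both stimuli from -0.76 to -0.58. Among the tested contrasts 1 call appeared. In the authors' surrogate-adjusted table rhob.L differed between the stimuli at 4 h, with -0.38 and an adjusted p-value of 0.0257. The other alternatives for this difference gave adjusted p-values of 0.329 to 1.00, and the cause was not tested. The limma fit of the adjusted values spent no degrees of freedom on the surrogate variables already removed. Its standard error was 0.0742, against 0.129 in the edgeR fit of the counts. Its p-values can thus be too small, which bears on all calls from that table.

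Values near 0 changed sign. For rhob.L in ATP 0 h against Ctrl it was -0.0052 in the authors' table, and -0.0088 to 0.11 with a library left out. The interaction in rhob.S was -0.0061 in the authors' table, and -0.088 to 0.32 with a library left out. The interaction of the summed level was -0.00094 with the replicate block, and -0.19 to 0.15 with a library left out. The block changed no call of rhob.

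Counts of called genes depended on the method. The replicate block gave 5 in place of 0 for extract 0 h against Ctrl, 1 in place of 0 for ATP 0 h, 14 in place of 3 for ATP 4 h against 0 h, 42 in place of 14 for 4 h against 0 h over both stimuli, and 7 in place of 0 between the stimuli at 4 h. DESeq2 gave 0, 5, 34, 82 and 0 for the same contrasts, and 14 in place of 0 for extract 4 h against Ctrl. The authors' table gave 550, 345, 1170, 1772 and 634. It also gave 1227 for extract 4 h and 287 for ATP 4 h against Ctrl, 187 for extract 4 h against 0 h, 140 between the stimuli at 0 h and 20 in the interaction. DESeq2 gave 6 in place of 1 for ATP 4 h against Ctrl, 4 in place of 0 for extract 4 h against 0 h and 1 in place of 0 between the stimuli at 0 h. With only the groups compared, extract 0 h against Ctrl gave 1, and ATP 4 h against Ctrl and against 0 h gave 0. With no filter ATP 0 h against Ctrl gave 3. With extract 4 h replicates 1 and 2 summed, 4 h against 0 h over both stimuli gave 3. With 1 library left out it gave 37 without extract 4 h replicate 3, 10 or 11 without ATP 4 h replicate 1 or 2, and 3 to 6 without any other. Left-out libraries gave 0 to 2 for extract 4 h against Ctrl (2 without replicate 3) and 0 to 1 for ATP 0 h against Ctrl, ATP 4 h against Ctrl and ATP 4 h against 0 h. The share of rhob.L varied between groups by 26.9% to 51.4% of its variation (permutation p 0.118 to 0.535).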
